A study of Mus musculus with 4 samples.

Results

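MHC class I molecules and the machinery that loads them with peptide were followed in natural killer (NK) cells of mouse liver. The genes taken were all rows whose symbol begins with H2-, with B2m, Tap1, Tap2, Tapbp, Psmb8, Psmb9, Psmb10, Psme1, Psme2, Nlrc5, Ciita and Cd74, which gave 49 of 21025 rows. Class I and antigen processing genes made up 35 of the 49 and class II genes 12, and the other 2, H2-Ke rows, encode no MHC molecule. No row carried the symbol Psme2, so that gene had no row among the 49. RNA came from livers of C57BL/6 mice of unstated age, and no other strain, genotype or treatment is named. TRAIL+ NK cells (2 libraries) were sorted as TCRb-, NK1.1+, NKp46+, TRAIL+ and CD49b-, and CD49b+ NK cells (2 libraries) as TCRb-, NK1.1+, NKp46+, TRAIL- and CD49b+. All 4 libraries therefore share the TCRb-, NK1.1+, NKp46+ gate. The labels do not say whether the libraries of a subset came from separate mice or from pools, so p-values here reflect differences among these libraries only, and that spread may be technical.

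A class I molecule is a polymorphic or nonclassical heavy chain held together with beta-2 microglobulin (B2m), and it shows peptides cut inside the cell on the cell surface. The immunoproteasome cuts the proteins, the Tap1 and Tap2 transporter carries the peptides into the endoplasmic reticulum, and tapasin (Tapbp) holds the heavy chain beside the transporter until a peptide is bound. In NK cells class I molecules matter also as ligands, since Ly49 receptors bind H2-K and H2-D and the CD94 and NKG2A receptor binds the H2-T23 product, Qa-1. Class II molecules show peptides from endosomes, and in the mouse they are chiefly made by B cells, dendritic cells and macrophages.

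Values are RPKM, which divides reads by gene length and sequencing depth. The whole-read steps of these values put the libraries at between 3786497 and 4232967 reads. The genes of the sort gate followed the labels, since the TRAIL gene Tnfsf10 was at 208 and 189 RPKM in TRAIL+ cells and 7.26 and 6.94 RPKM in CD49b+ cells. The CD49b gene Itga2 was at 5.26 and 1.55 RPKM in TRAIL+ cells and 52.1 and 37.0 RPKM in CD49b+ cells. Ncr1 (NKp46) lay between 978 and 1114 RPKM in all 4 libraries. Libraries also differed by gene length. Among tested genes under 1000 bases, the median of log2(RPKM + 1) was 0.58 higher in TRAIL+ replicate 2 than in TRAIL+ replicate 1, and among genes of 4000 bases or more the same difference was -0.33. Between the CD49b+ libraries the same medians were 0.22 and -0.10, replicate 2 minus replicate 1.

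B2m, H2-K1 and H2-D1 ranked within the first 15 of the 21025 rows in every library. Of the 21 class I and antigen processing genes tested, 17 had a positive log2 fold change in TRAIL+ over CD49b+ cells, by amounts that did not pass the test. Over all 10047 tested genes 5077 had a positive one. Genes that reached 1 RPKM in 2 or more of the 4 libraries entered the test, which ran on log2(RPKM + 1) with limma, with p-values adjusted over all 10047 tested genes and a threshold of 0.05. Of the 35 class I and antigen processing rows 21 passed this filter, and 0 of the 21 passed the test, against 8.62% of all tested genes (866 genes, 4.76% higher and 3.86% lower in TRAIL+ cells). At an unadjusted p under 0.05, 7 were higher and 1 was lower, against 11.1% and 8.85% of all tested genes. The same fit on reads worked out from the RPKM (limma voom) also called 0 of the 21. With the replicate number as a block, which no label backs, 8 of the 21 were called higher and 1 lower. That fit called 1049 higher and 833 lower of all 10047. After a correction for gene length, added once the data had been seen, 6 of the 21 were called higher, against 7.20% of all tested genes. Both TRAIL+ libraries lay above both CD49b+ libraries for 12 of the 21 genes and below them for 1, and the groups overlapped for 8. Over all tested genes the groups were apart in this way for 24.9% in the higher direction and 21.8% in the lower, 46.8% in all. The median log2 fold change was 0.39 over the 21 genes and 0.00499 over all tested genes. Over the 21 it was 0.50 without TRAIL+ replicate 1, 0.25 without TRAIL+ replicate 2, 0.33 without CD49b+ replicate 1 and 0.47 without CD49b+ replicate 2. Some T-cell markers moved with the subset too. All 3 T-cell markers tested (Cd3e, Cd4 and Cd8a) passed the test as higher in TRAIL+ cells, but Cd4 and Cd8a had passed the filter only through TRAIL+ cells. Cd8b1 and Cd5 did not pass the filter. Cd8b1 went the other way, with 1 read over the TRAIL+ libraries and 8 over the CD49b+ libraries, and Cd5 held 5 and 5. The 5 rows summed to 36.5 and 64.8 RPKM in TRAIL+ cells and 5.15 and 4.26 RPKM in CD49b+ cells. Their part in the class I values was not tested.

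**Figure D1:**
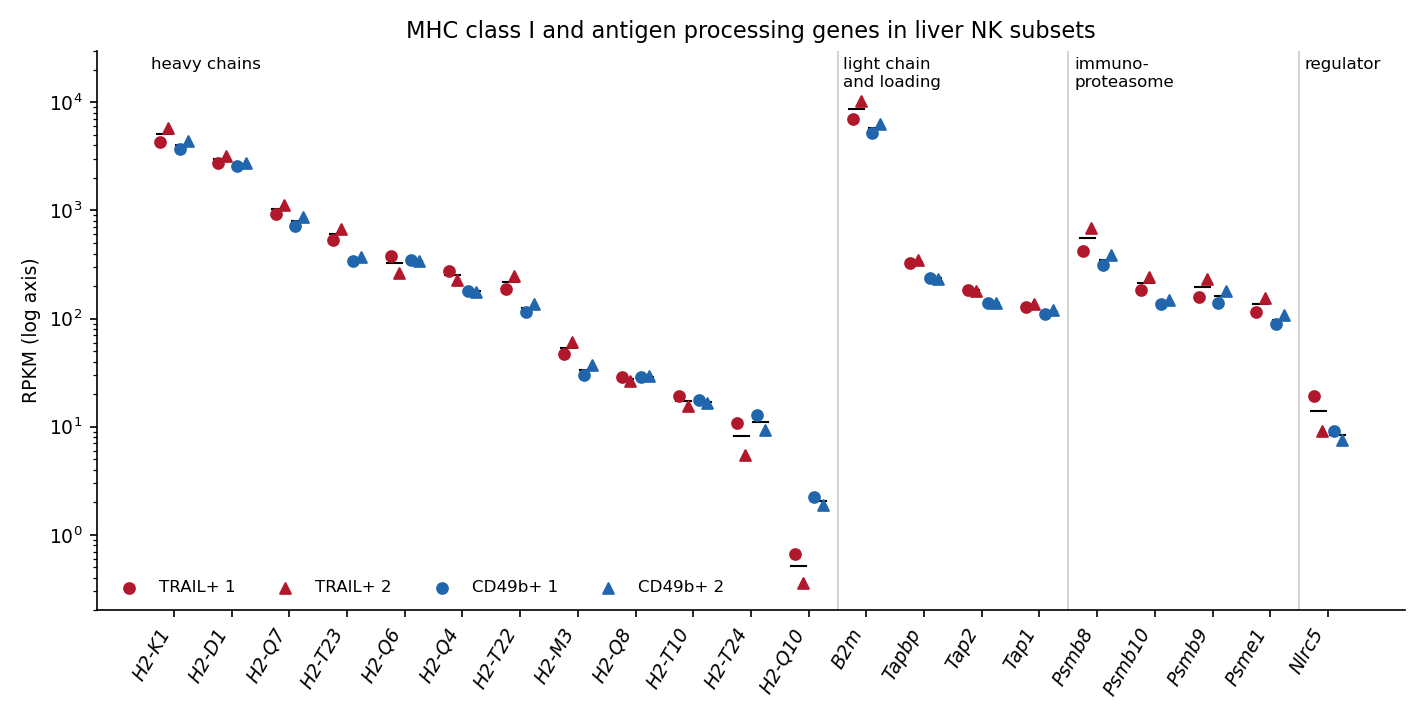
RPKM on a log axis of the 21 tested class I and antigen processing genes in each library, TRAIL+ in red left of CD49b+ in blue, with replicate 1 as circles, replicate 2 as triangles and group means as black bars. B2m stands highest in every library, from 5212 to 10351 RPKM, and H2-Q10 lowest, from 0.357 to 2.23 RPKM.

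The classical heavy chains H2-K1 and H2-D1, which present peptides to CD8 T cells and bind Ly49 receptors, were the most abundant heavy chains. H2-K1 stood at 4295 and 5807 RPKM in TRAIL+ cells and 3676 and 4358 RPKM in CD49b+ cells. The lower TRAIL+ library lay below the higher CD49b+ library, so the groups overlapped, and the log2 fold change was 0.32 ± 0.35 (SE, limma adjusted p = 0.745), with a 95% interval of -0.56 to 1.20. H2-D1, held in the row named H2-L whose accession is that of H2-D1, stood at 2734 and 3195 RPKM in TRAIL+ cells and 2596 and 2763 RPKM in CD49b+ cells. Its groups overlapped too (log2 fold change 0.14 ± 0.29, limma adjusted p = 0.876). Together these 2 genes held 74.5% and 77.3% of the summed heavy chain RPKM in TRAIL+ cells and 77.7% and 78.1% in CD49b+ cells.

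Among the nonclassical heavy chains, H2-T22, H2-T23 and H2-M3 had the largest positive differences of the 12 heavy chain rows tested, and in each of them both TRAIL+ libraries lay above both CD49b+ libraries. H2-T22, whose product is bound by some gamma-delta T-cell receptors, stood at 186 and 246 RPKM in TRAIL+ cells and 115 and 136 RPKM in CD49b+ cells (log2 fold change 0.77 ± 0.21, SE, limma adjusted p = 0.0974). H2-T23, which encodes the Qa-1 ligand of CD94 and NKG2A, stood at 531 and 669 RPKM in TRAIL+ cells and 344 and 373 RPKM in CD49b+ cells (0.73 ± 0.21, limma adjusted p = 0.111). H2-M3, which presents peptides that begin with N-formylmethionine, stood at 46.8 and 60.8 RPKM in TRAIL+ cells and 29.8 and 36.9 RPKM in CD49b+ cells (0.67 ± 0.21, limma adjusted p = 0.139). Their 95% intervals were 0.25 to 1.29, 0.21 to 1.26 and 0.15 to 1.19 on the log2 scale, in that order, and none held 0 before adjustment. Without TRAIL+ replicate 1, with the lone TRAIL+ library assumed to vary like the CD49b+ ones, all 3 passed the test in limma, at adjusted p of 0.0140, 0.0256 and 0.0277. Over all alternatives tried their adjusted p ran from 0.00417 to 0.769, from 0.00816 to 0.911 and from 0.00780 to 0.858.

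Among the Q-region genes, H2-Q7 and H2-Q4 had positive differences, while those of H2-Q6 and H2-Q8 were smaller than their SE. H2-Q7, a Qa-2 gene, stood at 922 and 1120 RPKM in TRAIL+ cells and 715 and 874 RPKM in CD49b+ cells (0.36 ± 0.24, limma adjusted p = 0.528). H2-Q4, held in the row named H2-GS10, stood at 276 and 227 RPKM in TRAIL+ cells and 182 and 176 RPKM in CD49b+ cells (0.48 ± 0.18, limma adjusted p = 0.221). Both had groups that did not overlap, whereas H2-Q6 and H2-Q8 overlapped. H2-Q6 stood at 382 and 265 RPKM in TRAIL+ cells and 349 and 340 RPKM in CD49b+ cells (-0.11 ± 0.23, limma adjusted p = 0.878). H2-Q8 stood at 29.0 and 26.7 RPKM in TRAIL+ cells and 28.9 and 29.2 RPKM in CD49b+ cells (-0.06 ± 0.16, limma adjusted p = 0.908).

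H2-Q10, whose product is secreted and which is known as a liver-expressed gene, was the single tested class I gene with both TRAIL+ libraries below both CD49b+ libraries. It stood at 0.664 and 0.357 RPKM in TRAIL+ cells and 2.23 and 1.89 RPKM in CD49b+ cells, from 6 and 25 reads in all (log2 fold change -1.02 ± 0.25, limma adjusted p = 0.0692). It passed the filter only through CD49b+ cells. The hepatocyte transcript Alb stood at 12.7 and 1.92 RPKM in TRAIL+ cells and 14.8 and 0.865 RPKM in CD49b+ cells, higher in replicate 1 of each subset. The part of hepatocyte RNA in the H2-Q10 values was not tested.

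The lower T-region rows showed no separation. H2-T10, a close copy of H2-T22, is held in a second row that is also named H2-T22 and that was matched to H2-T10 in RefSeq. This second row stood at 19.1 and 15.4 RPKM in TRAIL+ cells and 17.7 and 16.5 RPKM in CD49b+ cells (0.01 ± 0.19, limma adjusted p = 0.993), and the sign of this difference turned in 4 of the alternatives tried. H2-T24 stood at 10.9 and 5.43 RPKM in TRAIL+ cells and 12.7 and 9.30 RPKM in CD49b+ cells (-0.44 ± 0.35, limma adjusted p = 0.607). The other 14 heavy chain rows did not pass the filter. H2-M1, H2-M5, H2-M9, H2-M11, H2-T3 and 6 H2-M10 rows were listed at 0 in all 4 libraries, and H2-Q2, H2-M2 and H2-Q1 held 5, 3 and 1 reads over the TRAIL+ libraries and 4, 0 and 2 over the CD49b+ libraries. The H2-Q1 values come from a second row named H2-Q2.

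Heavy chain genes are near copies of each other, and how reads that match several of them were counted is not given in the sources used here. In GENCODE M21 transcripts, 44.6% of the 50-base windows of H2-T22 occurred in another H2 gene, most of them in H2-T10, and the share was 36.8% for H2-Q6 and 36.7% for H2-Q7. It was 20.6% for H2-T23, 16.5% for H2-Q4, 11.98% for H2-D1, 10.7% for H2-Q10, 8.79% for H2-K1, 1.27% for H2-T24 and 0.576% for H2-M3. Levels of H2-T22, H2-T10, H2-Q6 and H2-Q7 as single genes are therefore uncertain. No such share was worked out for H2-Q8, so its level as a single gene is uncertain too. Summed over H2-Q6, H2-Q7 and H2-Q8, RPKM was 1333 and 1413 in TRAIL+ cells and 1093 and 1243 in CD49b+ cells. The groups did not overlap, and the ratio of means was 1.18. Summed over all heavy chain rows, RPKM was 9433 and 11640 in TRAIL+ cells and 8068 and 9114 in CD49b+ cells, a ratio of means of 1.23 with groups that did not overlap.

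B2m, the light chain of all these molecules, stood at 7071 and 10351 RPKM in TRAIL+ cells and 5212 and 6314 RPKM in CD49b+ cells. It ranked 3 in TRAIL+ replicate 1 and 5 in the other libraries among all rows. Both TRAIL+ libraries were the higher ones, but they lay far apart, and the log2 fold change was 0.58 ± 0.41 (limma adjusted p = 0.563, 95% interval -0.45 to 1.60). The ratio of summed heavy chain RPKM to B2m RPKM was 1.33 and 1.12 in TRAIL+ cells and 1.55 and 1.44 in CD49b+ cells, the lower values being those of TRAIL+ cells.

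The peptide transporter and loading genes gave replicates close to each other. All 3 had groups that did not overlap, with TRAIL+ higher, which held for 24.9% of all tested genes. Tapbp (tapasin) stood at 325 and 349 RPKM in TRAIL+ cells and 239 and 233 RPKM in CD49b+ cells (0.51 ± 0.17, limma adjusted p = 0.167). Tap2 stood at 184 and 181 RPKM in TRAIL+ cells and 140 and 138 RPKM in CD49b+ cells (0.39 ± 0.15, limma adjusted p = 0.249). Tap1, the partner of Tap2 in the same transporter, stood at 128 and 136 RPKM in TRAIL+ cells and 111 and 120 RPKM in CD49b+ cells (0.19 ± 0.16, limma adjusted p = 0.630). Of the 13 other peptide loading and endoplasmic reticulum genes tested, 0 passed the limma test, against 8.62% of all tested genes, and voom called 0. At an unadjusted p under 0.05, 4 were higher and 1 was lower, against 11.1% and 8.85% of all tested genes.

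**Figure D2:**
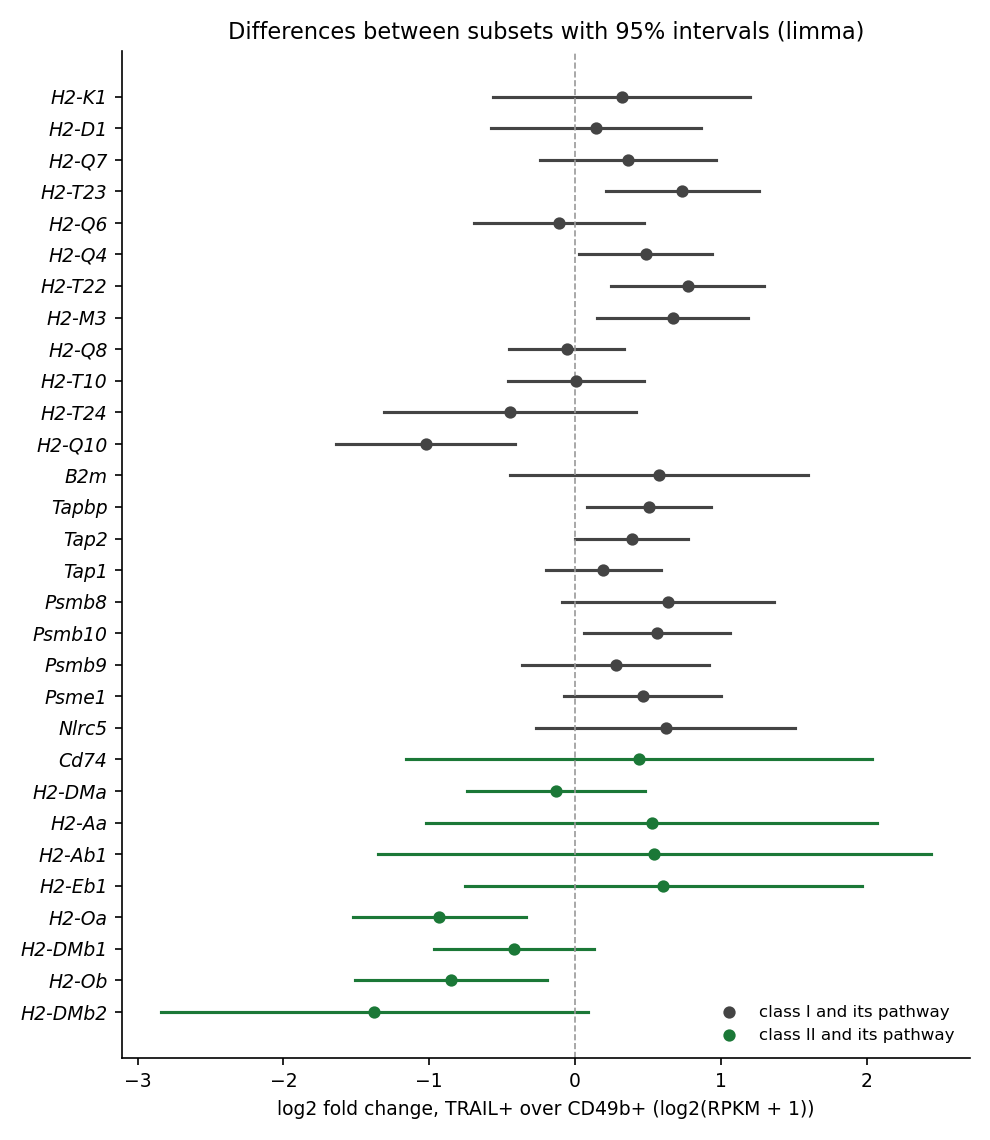
Log2 fold change of TRAIL+ over CD49b+ with its 95% interval from limma (not adjusted for multiple tests) for the 21 tested class I and antigen processing genes (grey) and the 9 tested class II genes (green). Of the grey points 17 lie above 0, against 5077 of all 10047 tested genes. The green points run from -1.38 (H2-DMb2) to 0.61 (H2-Eb1).

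Immunoproteasome subunits take the place of the constitutive catalytic subunits when the proteasome is built under interferon gamma or in lymphoid cells. Psmb8 (LMP7) stood at 425 and 691 RPKM in TRAIL+ cells and 315 and 385 RPKM in CD49b+ cells (0.64 ± 0.29, limma adjusted p = 0.320). Psmb10 (MECL-1) stood at 185 and 243 RPKM in TRAIL+ cells and 137 and 150 RPKM in CD49b+ cells (0.56 ± 0.20, limma adjusted p = 0.195). Psmb9 (LMP2) stood at 159 and 234 RPKM in TRAIL+ cells and 139 and 182 RPKM in CD49b+ cells, with groups that overlapped (0.28 ± 0.26, limma adjusted p = 0.681). Psme1, a subunit of the PA28 activator that caps the proteasome, stood at 116 and 157 RPKM in TRAIL+ cells and 88.5 and 107 RPKM in CD49b+ cells (0.46 ± 0.22, limma adjusted p = 0.330). In each of these 4 genes replicate 2 was the higher library of its subset.

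Their constitutive counterparts Psmb5, Psmb6 and Psmb7 had groups that overlapped in each case. Psmb5 stood at 73.9 and 119 RPKM in TRAIL+ cells and 77.8 and 99.5 RPKM in CD49b+ cells (0.09 ± 0.27, limma adjusted p = 0.921). Psmb6 stood at 79.0 and 113 RPKM in TRAIL+ cells and 91.1 and 98.6 RPKM in CD49b+ cells (-0.01 ± 0.22, limma adjusted p = 0.993). Psmb7 stood at 57.8 and 78.4 RPKM in TRAIL+ cells and 70.8 and 63.2 RPKM in CD49b+ cells (0.01 ± 0.20, limma adjusted p = 0.991). Of the 17 constitutive proteasome genes tested 0 passed the limma test, against 8.62% of all tested genes, and voom called 0. At an unadjusted p under 0.05, 1 was higher, against 11.1% of all tested genes. The median log2 fold change of the 17 was 0.09.

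A ratio of an immunoproteasome subunit to its counterpart sets 2 short transcripts of the same library against each other. The log2 ratio of Psmb8 to Psmb5 was 2.52 and 2.54 in TRAIL+ cells and 2.02 and 1.95 in CD49b+ cells. That of Psmb10 to Psmb7 was 1.68 and 1.63 in TRAIL+ cells and 0.95 and 1.25 in CD49b+ cells. That of Psmb9 to Psmb6 was 1.01 and 1.05 in TRAIL+ cells and 0.61 and 0.88 in CD49b+ cells. Each ratio was higher in both TRAIL+ libraries than in both CD49b+ libraries, by 0.55, 0.56 and 0.29 between the means, and the SD of a log2 ratio was 0.012 to 0.031 over the TRAIL+ libraries and 0.047 to 0.21 over the CD49b+ libraries. With 2 libraries against 2 no exact permutation test can reach the threshold, so these ratios are a description with no test. Without CD49b+ replicate 1 the difference in the Psmb9 to Psmb6 ratio was 0.15, and without CD49b+ replicate 2 it was 0.43.

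**Figure D3:**
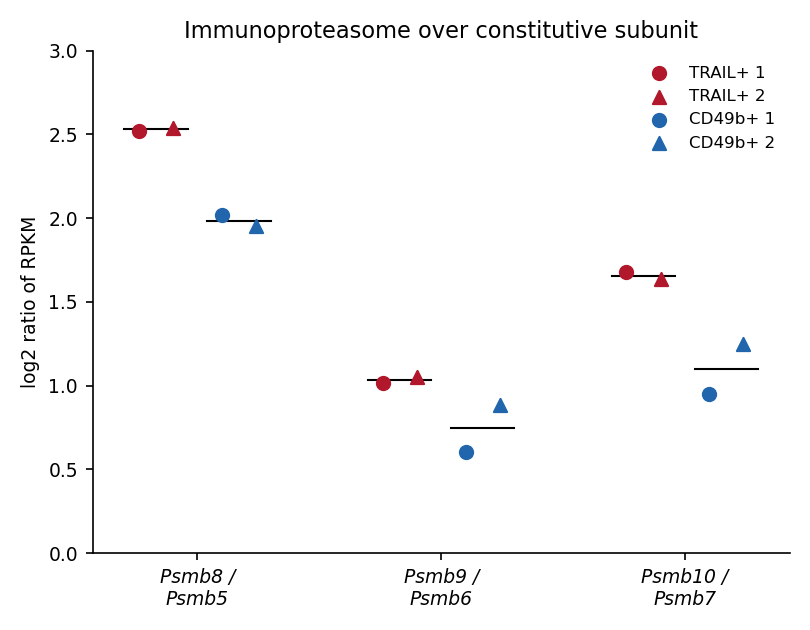
Log2 ratio of RPKM of each immunoproteasome subunit to its constitutive counterpart, with TRAIL+ libraries in red left of CD49b+ libraries in blue, replicate 1 as circles, replicate 2 as triangles and group means as black bars. In each pair of genes both TRAIL+ points lie above both CD49b+ points.

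Nlrc5, the transactivator of class I genes, stood at 19.1 and 9.14 RPKM in TRAIL+ cells and 9.15 and 7.49 RPKM in CD49b+ cells. The high value was that of TRAIL+ replicate 1 alone, and the other TRAIL+ library lay within the CD49b+ range (0.62 ± 0.35, limma adjusted p = 0.441). Of the 17 other class I regulators tested 1 passed the test and it was lower in TRAIL+ cells, against 8.62% of all tested genes in either direction and 3.86% lower. This was Ifngr1, the ligand-binding chain of the interferon gamma receptor, at 182 and 199 RPKM in TRAIL+ cells and 537 and 627 RPKM in CD49b+ cells (-1.60 ± 0.19, limma adjusted p = 0.00688). Ifngr1 did not pass in fits that left out a CD49b+ library, with limma adjusted p of 0.0658 when this was replicate 1 and 0.107 when it was replicate 2, in a range of 0.000114 to 0.107 over the alternatives. Of the 2 class I-like genes tested, Cd1d1 and Mr1, 0 passed the limma test and voom called 0. Cd1d1 was lower at an unadjusted p under 0.05, as were 8.85% of all tested genes.

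Most class I and antigen processing genes are short, and gene length is a point on which these libraries differed. Of the 21 tested, 16 were under 2000 bases. The median difference of TRAIL+ from CD49b+ means on the log2(RPKM + 1) scale was 0.11 over the 790 tested genes under 1000 bases, 0.04 over the 2301 from 1000 to under 2000 bases and -0.06 over the 2888 of 4000 bases or more. With each library corrected for gene length, an alternative that was added once the data had been seen, 6 of the 21 passed the test, all of them higher in TRAIL+ cells, against 7.20% of all tested genes higher, 6.00% lower and 13.2% in either direction. They were H2-T22, H2-T23, H2-M3, B2m, Psmb10 and Tapbp, with corrected log2 fold changes of 0.72, 0.67, 0.61, 0.47, 0.50 and 0.49. The median over the 21 genes was 0.33 after the correction. Without TRAIL+ replicate 1 the genes past the test were 5 higher (H2-T22, H2-T23, Psmb8, H2-M3 and Psmb10) and 1 lower (H2-Q10), against 7.73% and 7.59% of all tested genes and 15.3% in either direction. Without TRAIL+ replicate 2 the 1 gene past the test was Nlrc5, against 10.9% of all tested genes. Without CD49b+ replicate 1 or CD49b+ replicate 2 there was 0, against 4.41% and 4.65% of all tested genes.

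**Figure D4:**
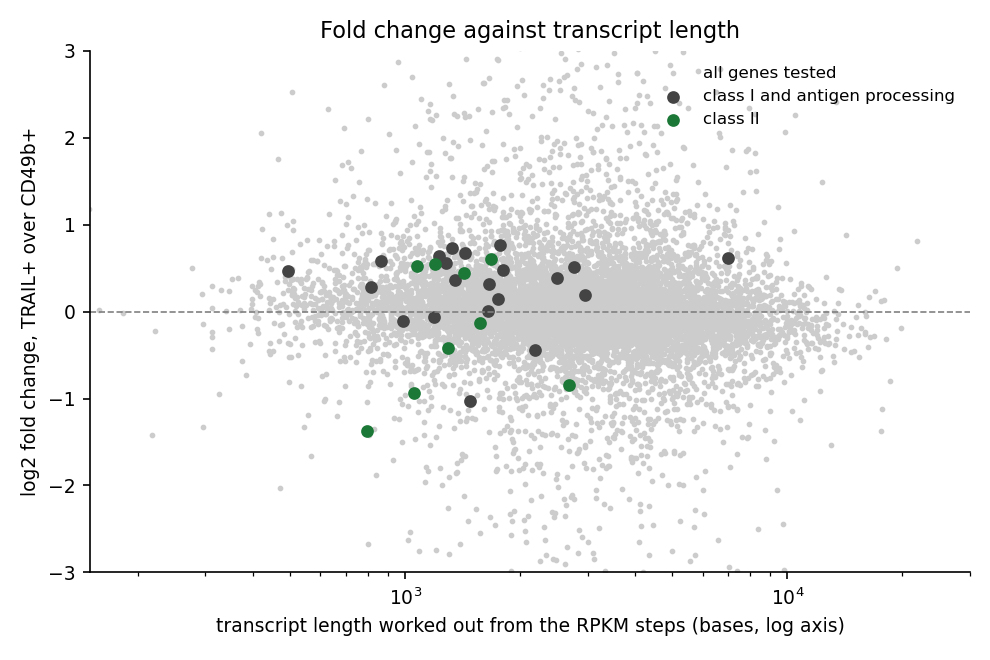
Log2 fold change of TRAIL+ over CD49b+ against transcript length, worked out from the RPKM steps, for all tested genes (light grey), class I and antigen processing genes (dark grey) and class II genes (green). The fold change axis ends at 3 on either side, and 174 genes lie outside the plotted ranges. Most dark points lie left of 2000 bases and above 0.

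To show the sequences from which these genes are transcribed, the 200 bases before the start are given for the light chain and the 3 nonclassical heavy chains with the largest positive differences, then for H2-K1 and H2-D1, whose groups overlapped. Sequences and starts are those of RefSeq on GRCm38.p6, while the authors aligned to mm9, and each is written 5' to 3' on the gene's strand with the base next to the start last. Capitals mark matches, on either strand, to 4 motifs, namely the interferon-stimulated response element (GAAA, any 2 bases and GAAA), a core of the kappaB site (GGGGATT), the X2 box core TGACG and the inverted CCAAT or Y box ATTGG.

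B2m, chr2:122147487-122147686, plus strand: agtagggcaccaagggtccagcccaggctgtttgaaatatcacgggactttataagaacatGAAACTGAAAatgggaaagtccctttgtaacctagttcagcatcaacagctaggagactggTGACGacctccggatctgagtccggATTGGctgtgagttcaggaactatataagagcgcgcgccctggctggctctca
H2-T23, chr17:36032702-36032901, minus strand: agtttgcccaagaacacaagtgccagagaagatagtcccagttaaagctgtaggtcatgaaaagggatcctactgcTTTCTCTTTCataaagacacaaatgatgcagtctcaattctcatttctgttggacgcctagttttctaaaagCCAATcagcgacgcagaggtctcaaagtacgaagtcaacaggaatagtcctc
H2-T22, chr17:36042743-36042942, minus strand: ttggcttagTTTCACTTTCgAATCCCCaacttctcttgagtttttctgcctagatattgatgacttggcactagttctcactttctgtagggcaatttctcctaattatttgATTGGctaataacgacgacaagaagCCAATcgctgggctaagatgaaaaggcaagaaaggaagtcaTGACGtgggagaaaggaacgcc
H2-M3, chr17:37270034-37270233, plus strand: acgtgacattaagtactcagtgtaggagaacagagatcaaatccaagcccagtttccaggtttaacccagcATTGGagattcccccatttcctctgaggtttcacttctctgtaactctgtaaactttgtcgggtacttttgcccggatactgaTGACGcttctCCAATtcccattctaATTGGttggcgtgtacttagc
H2-K1, chr17:34000348-34000547, minus strand: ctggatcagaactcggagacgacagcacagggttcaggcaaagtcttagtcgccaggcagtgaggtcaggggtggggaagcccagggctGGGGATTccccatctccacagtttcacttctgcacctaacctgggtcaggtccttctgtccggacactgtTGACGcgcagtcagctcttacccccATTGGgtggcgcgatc
H2-D1, chr17:35262894-35263093, plus strand: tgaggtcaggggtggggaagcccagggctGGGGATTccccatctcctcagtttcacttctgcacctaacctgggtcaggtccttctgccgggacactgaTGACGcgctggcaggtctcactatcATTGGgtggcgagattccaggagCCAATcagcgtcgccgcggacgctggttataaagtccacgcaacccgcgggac

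In the 250 bases before the start, the interferon-stimulated response element was matched in 3 of the 16 tested class I and antigen processing genes with a promoter entry, namely B2m, H2-T22 and H2-T23, against 2.98% of all 32851 promoters. In B2m it began 139 bases before the start, in H2-T22 191 and in H2-T23 124, on the opposite strand in both H2 genes. Only exact matches were counted, so a gene without one may still hold a looser form of the element. The printed stretches of H2-K1, H2-D1 and H2-M3 hold the letters tttcacttct, which resemble the element on the opposite strand but are not a match. The kappaB core was matched in 6 of the 16, H2-K1, H2-D1, H2-Q4, H2-Q6, H2-Q7 and H2-T22, against 2.76% of all promoters. This core was chosen after a longer form of the site had been searched in the same promoters and had matched fewer of them, so its count rests on that choice. The X2 box core was matched in 9 of the 16 and the Y box in 12, against 17.8% and 33.8% of all promoters. These promoters are near copies of each other in part, so their matches are not independent, and a match is a description of the letters and not of a bound site. Promoter entries were matched for 39 of the 49 genes.

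Class II genes were present at low to moderate levels. Of the 9 tested, 0 passed the limma test, against 8.62% of all tested genes, and voom called 0. At an unadjusted p under 0.05, 2 were lower, against 8.85% of all tested genes. Groups did not overlap in 4 of the 9, all lower in TRAIL+ cells, and overlapped in 5, against 46.8% of all tested genes without overlap and 21.8% without overlap and lower. The median log2 fold change over the 9 was -0.13, and its sign depended on the filter. It was 0.39 over the 11 genes kept with no filter on low values and 0.48 over the 6 that reached a minimum of 5 RPKM, and with 1 library left out it ran from -0.43 to -0.27.

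In the 3 peptide-binding chains tested and the invariant chain, replicates of a subset lay far apart. H2-Aa stood at 60.1 and 28.3 RPKM in TRAIL+ cells and 51.7 and 15.4 RPKM in CD49b+ cells (log2 fold change 0.53 ± 0.62, limma adjusted p = 0.761). H2-Ab1, which pairs with H2-Aa, stood at 47.9 and 16.1 RPKM in TRAIL+ cells and 37.8 and 9.12 RPKM in CD49b+ cells (0.54 ± 0.76, limma adjusted p = 0.810). H2-Eb1 stood at 30.9 and 13.2 RPKM in TRAIL+ cells and 20.7 and 8.05 RPKM in CD49b+ cells (0.61 ± 0.54, limma adjusted p = 0.670). Cd74, the invariant chain that guards the groove until it reaches the endosome, stood at 109 and 39.5 RPKM in TRAIL+ cells and 81.0 and 28.6 RPKM in CD49b+ cells (0.44 ± 0.64, limma adjusted p = 0.819). In these 4 genes replicate 1 was at least 2-fold above replicate 2 in both subsets, which held for 1.45% of all tested genes (146 genes), and the groups overlapped in each. In the fit with a replicate block H2-Eb1, Cd74 and H2-Ab1 passed the test as higher in TRAIL+ cells, at limma adjusted p of 0.0280, 0.0433 and 0.0489. The same fit called H2-DMb2, H2-Ob and H2-Oa lower. Of all 10047 tested genes it called 1049 higher and 833 lower. H2-Ea, which is defective in C57BL/6 mice, was listed at 0 in all libraries, and H2-Eb2 did not pass the filter, at 0.871 and 1.48 RPKM in TRAIL+ cells and 0.977 and 0.376 RPKM in CD49b+ cells.

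Several markers of cells that make class II, though not all of them, were also higher in replicate 1 of each subset. Summed over the 10 macrophage and Kupffer cell markers, RPKM was 105 and 25.8 in TRAIL+ cells and 135 and 10.33 in CD49b+ cells, with 9 and 9 markers above 0 in the TRAIL+ libraries and 9 and 6 in the CD49b+ libraries. Lyz2 made up most of this sum, at 81.9 and 9.21 RPKM in TRAIL+ cells and 122 and 8.87 RPKM in CD49b+ cells, and the Kupffer cell gene Marco was listed at 0 in all libraries. Of the 7 macrophage and Kupffer cell markers tested, 3 were at least 2-fold higher in replicate 1 of both subsets. Other members did not follow the replicate number, since Cd5l stood at 1.32 and 3.23 RPKM in TRAIL+ cells and 1.04 and 0.498 RPKM in CD49b+ cells. C1qa, a complement gene of macrophages, stood at 5.21 and 4.38 RPKM in TRAIL+ cells and at 1.31 RPKM and listed at 0 in the CD49b+ libraries, with groups that did not overlap. The 6 B-cell markers summed to 22.5 and 16.0 RPKM in TRAIL+ cells and 23.6 and 12.4 RPKM in CD49b+ cells, with all 6 above 0 in every library. The 7 dendritic cell markers summed to 379 and 313 RPKM in TRAIL+ cells and 163 and 162 RPKM in CD49b+ cells, nearly all of it Itgax, an integrin gene that NK cells express too. Their sums lay apart by subset and not by replicate, and both members tested, Itgax and Xcr1, passed the test as higher in TRAIL+ cells, Xcr1 after passing the filter only through TRAIL+ cells. Xcr1 stood at 2.98 and 3.20 RPKM in TRAIL+ cells and 0.106 and 0.0571 RPKM in CD49b+ cells, and Flt3 and Clec9a were listed at 0 in replicate 2 of both subsets. The 4 hepatocyte markers summed to 18.1 and 3.64 RPKM in TRAIL+ cells and 17.7 and 1.28 RPKM in CD49b+ cells. The part of other cells in the class II values was not tested, and in bulk libraries fewer cells of a type and less RNA per cell cannot be told apart.

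**Figure D5:**
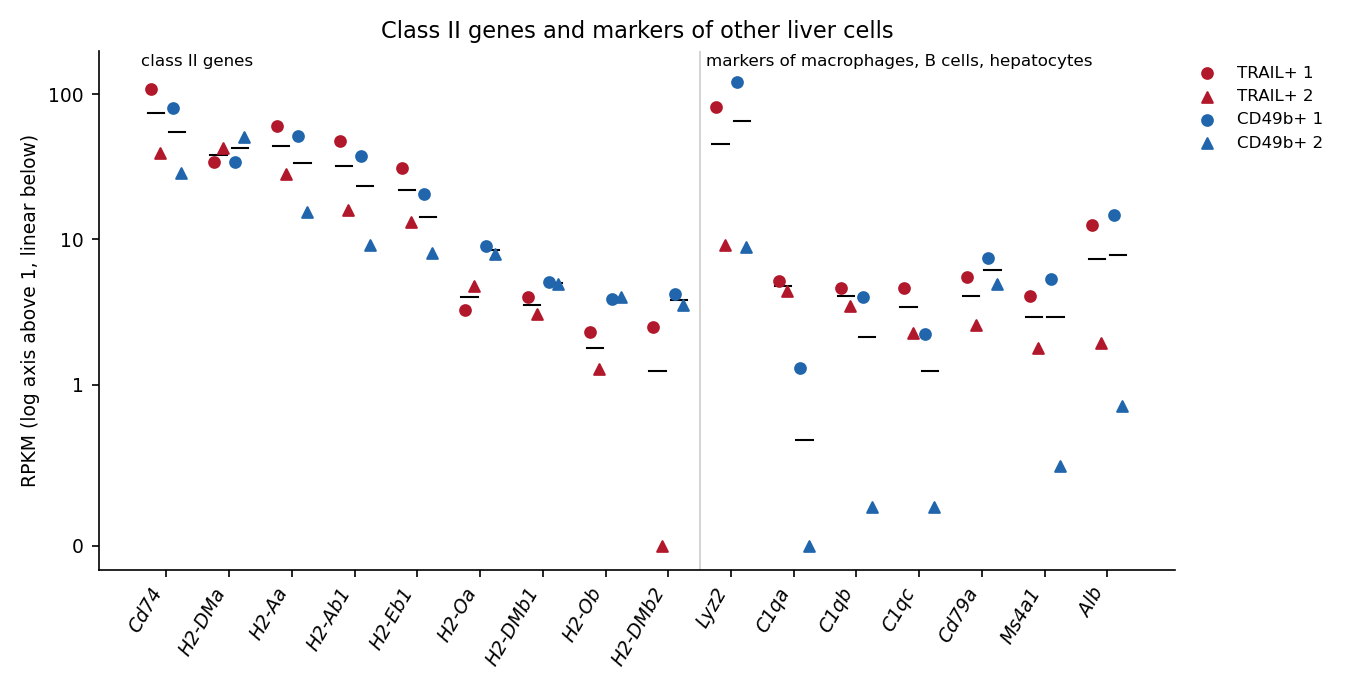
RPKM (log axis above 1, linear below) of the 9 tested class II genes and of 7 marker genes of macrophages (Lyz2, C1qa, C1qb, C1qc), B cells (Cd79a, Ms4a1) and hepatocytes (Alb), TRAIL+ in red left of CD49b+ in blue, replicate 1 as circles, replicate 2 as triangles, group means as black bars. Circles stand above triangles in both subsets for Cd74, H2-Aa, H2-Ab1, H2-Eb1, H2-DMb1 and H2-DMb2, and for all 7 marker genes shown. Tested markers without this pattern, among them Cd5l, Xcr1 and Itgax, are not shown.

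The class II peptide exchanger H2-DM and its inhibitor H2-O had 5 genes here, and none of the 5 passed the test. In 4 of the 5, all but H2-DMa, both TRAIL+ values lay below both CD49b+ values. Over all tested genes this held for 21.8%. H2-Oa and H2-Ob encode the 2 chains of H2-O, which holds back the exchanger H2-DM and is known chiefly from B cells. H2-Oa stood at 3.26 and 4.76 RPKM in TRAIL+ cells and 8.97 and 7.96 RPKM in CD49b+ cells (-0.93 ± 0.24, limma adjusted p = 0.0810). H2-Ob stood at 2.29 and 1.28 RPKM in TRAIL+ cells and 3.88 and 3.99 RPKM in CD49b+ cells (-0.85 ± 0.26, limma adjusted p = 0.141). Both had all TRAIL+ values below all CD49b+ values, a pattern that the 3 B-cell markers tested did not share. Cd79a stood at 5.53 and 2.58 RPKM in TRAIL+ cells and 7.45 and 4.96 RPKM in CD49b+ cells, with groups that overlapped. Cd79b went the other way without overlap, at 11.4 and 10.97 RPKM in TRAIL+ cells and 8.44 and 5.91 RPKM in CD49b+ cells. Ms4a1 stood at 4.05 and 1.79 RPKM in TRAIL+ cells and 5.38 and 0.493 RPKM in CD49b+ cells, with groups that overlapped. Of the H2-DM chains, H2-DMb2 stood at 2.48 RPKM and was listed at 0 in the TRAIL+ libraries, against 4.18 and 3.53 RPKM in CD49b+ cells (-1.38 ± 0.59, limma adjusted p = 0.284), from 8 and 25 reads in all. H2-DMb1 stood at 3.998 and 3.07 RPKM in TRAIL+ cells and 5.13 and 4.93 RPKM in CD49b+ cells (-0.42 ± 0.22, limma adjusted p = 0.396). H2-DMa, which pairs with either of them, stood at 34.4 and 42.4 RPKM in TRAIL+ cells and 34.3 and 51.2 RPKM in CD49b+ cells (-0.13 ± 0.24, limma adjusted p = 0.863), with groups that overlapped, well above both partners in every library. With 1 library left out, the log2 fold change ran from -2.28 to -0.48 for H2-DMb2, from -1.11 to -0.58 for H2-Ob and from -1.15 to -0.71 for H2-Oa.

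Ciita, the transactivator of class II genes, did not pass the filter and was not tested. It stood at 1.80 and 0.868 RPKM in TRAIL+ cells and 0.411 and 0.147 RPKM in CD49b+ cells, with both TRAIL+ values above both CD49b+ values. These were 55 and 12 reads, a ratio of 4.76 after scaling to library reads, whose 95% interval from the exact binomial was 2.52 to 9.77 and covers counting error only. Within each subset Ciita was more than 2-fold higher in replicate 1, as the chains and Cd74 were.

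For comparison with the class I promoters, the same stretch is shown for a class II chain gene and for a gene of H2-O. The X2 box core was matched in H2-Aa, on both strands in overlap, and not in H2-Oa, and the Y box in both.

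H2-Aa, chr17:34287824-34288023, minus strand: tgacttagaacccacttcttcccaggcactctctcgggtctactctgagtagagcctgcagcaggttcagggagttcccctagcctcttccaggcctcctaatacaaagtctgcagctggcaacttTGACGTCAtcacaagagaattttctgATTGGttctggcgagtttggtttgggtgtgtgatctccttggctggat
H2-Oa, chr17:34092179-34092378, plus strand: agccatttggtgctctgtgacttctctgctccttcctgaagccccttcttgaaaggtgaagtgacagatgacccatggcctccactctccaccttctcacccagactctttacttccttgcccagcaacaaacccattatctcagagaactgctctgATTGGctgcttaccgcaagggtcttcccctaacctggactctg

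Of the other class II pathway genes tested, 1 of 7 was higher and 1 lower in TRAIL+ cells, against 4.76% and 3.86% of all tested genes. Ctss, the protease that trims the invariant chain, fell to 16.9 and 12.01 RPKM in TRAIL+ cells, against 53.6 and 47.0 RPKM in CD49b+ cells (-1.74 ± 0.22, limma adjusted p = 0.00819). Ctsb, another lysosomal cathepsin, stood at 96.6 and 115 RPKM in TRAIL+ cells and 50.9 and 58.7 RPKM in CD49b+ cells (0.93 ± 0.18, limma adjusted p = 0.0326). Ctsb no longer passed when CD49b+ replicate 1 was left out (limma adjusted p = 0.405), when CD49b+ replicate 2 was left out (0.216), with a prior without a trend (0.0504) and with libraries centred on their medians (0.0568), in a range of 0.00105 to 0.405 over the alternatives. Of the 2 H2-Ke rows, H2-Ke6, a steroid dehydrogenase gene, stood at 34.3 and 46.1 RPKM in TRAIL+ cells and 27.2 and 26.4 RPKM in CD49b+ cells (0.55 ± 0.20, limma adjusted p = 0.194). Pfdn6, a prefoldin gene held in the row named H2-Ke2, stood at 56.1 and 67.9 RPKM in TRAIL+ cells and 60.8 and 62.9 RPKM in CD49b+ cells (-0.0032 ± 0.17, limma adjusted p = 0.996).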

How the data were processed

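RNA-seq of 4 libraries (2 of TRAIL+ and 2 of CD49b+ liver NK cells) was analysed, grouped by their titles. The authors deposited 1 RPKM value per gene and library, per the file headers. Alignment was to mm9 with TopHat 1.4.1, per the submitters' processing notes. How reads were counted, with which annotation and strand setting, and what became of reads matching several genes is not given in the sources used here. The genes and lists were chosen with earlier results of these data known.

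Gene names were matched to RefSeq (GRCm38.p6) by accession for 20661 of the 21025 rows, by symbol for 191 and by synonym for 65, and 108 kept the name in the file. All 13681 rows above 0 (100%) gave whole reads in all libraries within a relative tolerance of 1e-06. The length of a row is the smallest that does so, multiplied by 2 to 6 where that brought it within 10% of the GENCODE M21 length. Among the 10859 single-accession rows whose length is annotated, 80.9% came within 10%, so reads of other rows are less certain. Reads per library ranged from 3786497 to 4232967. Intervals and floors cover counting error only.

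Rows that reached 1 RPKM in 2 or more libraries (10047) entered a limma fit (version 3.58.1, R 4.3.3) of log2(RPKM + 1) (lmFit, eBayes with a trended prior, subset as the term, TRAIL+ minus CD49b+), with Benjamini-Hochberg adjustment over all of them. The model was tested on simulated data. Log2 fold changes are given with SE on this scale, and for low genes they understate the change. Every tested gene of the rule is given with its values, and other pathway genes where they passed the test, besides Psmb5, Psmb6 and Psmb7. Alternatives were pseudocounts of 0.5 and 5, no filter or a minimum of 5 RPKM, each library left out, a replicate block, a prior without a trend, median centring, voom on the reads (487 genes higher and 402 lower) and, chosen after seeing the data, a correction for gene length by lowess. Promoter motifs, chosen after seeing the data, were searched in the 250 bases before each RefSeq start.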

Additional observations from a re-analysis of the deposited data

How the results depend on the processing

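Of the class I and antigen processing genes 0 passed the test under 6 alternatives (both pseudocounts, no filter, a minimum of 5 RPKM, median centring and voom), and 1 (H2-Q10) with a prior without a trend. With 1 library left out the count ran from 0 to 6 of 21, that of class II genes from 0 to 2 of 9, that of other pathway genes from 1 to 9 and that of all genes from 443 to 1540. The length correction gave 6, 1, 9 and 1326 in that order. Same-numbered libraries deviated together (r = 0.563 across 10047 genes), but the labels name no shared mouse or batch, so the numbers are not taken as pairs. With a replicate block the counts were 9 class I genes (8 higher, 1 lower), 6 class II genes (3 higher, 3 lower) and 14 other pathway genes. Over all genes this fit called 1882, of which 1049 were higher and 833 lower. The lower class I gene was H2-Q10, also called with a prior without a trend. H2-Q10 had passed the filter only through CD49b+ cells, which favours a call as lower.

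The sign of a log2 fold change turned in some of these fits for 11 genes, none of which passed the test in a fit where the sign had turned. With 1 library left out it ran from -0.027 to 1.24 for H2-Eb1, from -0.43 to 1.51 for H2-Ab1, from -0.32 to 1.37 for H2-Aa, from -0.29 to 1.18 for Cd74, from -0.41 to 0.15 for H2-DMa, from -0.37 to 0.15 for H2-Q6, from -0.14 to 0.15 for H2-T10, from -0.14 to 0.13 for Pfdn6, from -0.25 to 0.43 for Psmb5, from -0.26 to 0.25 for Psmb6 and from -0.21 to 0.22 for Psmb7. With median centring it was -0.012 for H2-T10 and -0.0098 for Psmb7, and after the length correction -0.051 for H2-T10, -0.014 for Psmb5 and -0.086 for Psmb7. The cause was not tested. Of the tested members depth limits H2-Q10 and H2-DMb2 most, with 6 and 8 reads in TRAIL+ cells, the subset that had fewer.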

Other observations

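Some rows outside the rule carry accessions of MHC or antigen processing genes. The row named PSME2B-PS holds the accessions of Psme2, the partner of Psme1 in PA28, and stood at 2.24 and 1.87 RPKM in TRAIL+ cells and 1.91 and 2.32 RPKM in CD49b+ cells, from 16 and 17 reads in all. Psme1 stood above 80 RPKM in every library, so this row lay far below Psme1 in both subsets. How reads matching several genes were counted is not given, so the level of Psme2 itself is uncertain. H2-K2 stood at 4.62 and 2.98 RPKM in TRAIL+ cells and 3.02 and 6.31 RPKM in CD49b+ cells, with groups that overlapped.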
